A study of Mus musculus with 2 samples.

Results

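The 10 glycolysis enzymes described here were measured in mouse embryonic stem cells (mESCs) of the iXist-ChrX-Dom line, without induction of Xist: Hk2, Gpi1, Pfkl, Aldoa, Tpi1, Gapdh, Pgk1, Eno1, Pkm and Ldha. They were taken by gene symbol from a table of 22556 genes, and all 10 of 10 symbols had a row with counts. Messenger RNA was sequenced from 1 group of 2 replicates with no treatment contrast, and the series served to rank genes by their expression before Xist is switched on. The cells are a female XX line from a Dom/129S x Cast cross, derived as 1 clone, in which a TetOn promoter stands in place of the endogenous Xist promoter on the Dom/129S allele. Both replicates were untreated (0 h of induction) and grown with serum and LIF-conditioned medium on inactivated fibroblast feeders, which had been taken off by pre-plating. Replicate 1 held 23716499 assigned fragments and replicate 2 held 20275749. The labels do not say whether the replicates were separate cultures, so a p-value between them measures only how these libraries differ.

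Glycolysis splits a molecule of glucose into pyruvate and yields ATP without oxygen, and lactate dehydrogenase then turns pyruvate into lactate and restores NAD+. Several steps can be run by any of several isozymes, which are separate genes used in different tissues. Mouse ES cells in serum are known for active glycolysis beside oxidative metabolism, and several of these genes are classical targets of the hypoxia factor HIF-1.

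The labels give the cell type as mESC to NPC, and the libraries carried ES cell markers. All 9 of 9 ES cell markers reached a mean of 10 transcripts per 1000000 (TPM) or more, with a median of 226 TPM, led by Tdgf1, Zfp42 and Nanog. The 10 fibroblast markers had a median of 0.145 TPM, summed to 3.84 TPM in replicate 1 and 1.21 TPM in replicate 2, and Lum had 0 counts in both. For the 6 markers of neural precursors the median was 0.0533 TPM and the sum 5.04 and 4.23 TPM, mostly from Nes, while Sox1 and Olig2 had 0 counts. Where a gene had 0 counts, up to 3 remain possible, which is 0.126 CPM (counts per 1000000) in replicate 1 and 0.148 CPM in replicate 2. Such floors and all intervals below cover counting error only.

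Glycolytic genes are known for processed pseudogenes, copies of the spliced transcript elsewhere in the genome, and a read that fits several places equally well is lost from a table of unique hits. The 3 member stretches of 81 bases below, 1 read long, are examples chosen by their copies. The Gapdh stretch had the most exact copies among those searched. The Pkm and Ldha stretches were picked from those without an exact copy, so the contrast between the 3 was fixed by the choice. An exact copy was annotated for 57 of 57 Gapdh stretches searched, 181 of 793 for Pkm and 28 of 460 for Ldha. Each was read from the GENCODE M21 transcript (GRCm38), and each lies in 1 exon. The Gapdh stretch is at chr6:125162959-125163039 on the minus strand (exon 4), the Pkm stretch at chr9:59670618-59670698 on the plus strand (exon 6) and the Ldha stretch at chr7:46850913-46850993 on the plus strand (exon 5). Capitals in a copy mark the bases that differ from the member.
Gapdh: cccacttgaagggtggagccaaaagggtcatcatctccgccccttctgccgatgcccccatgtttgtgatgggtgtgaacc
Gm11953, a copy of Gapdh: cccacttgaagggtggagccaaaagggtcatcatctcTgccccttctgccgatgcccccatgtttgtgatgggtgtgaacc
Pkm: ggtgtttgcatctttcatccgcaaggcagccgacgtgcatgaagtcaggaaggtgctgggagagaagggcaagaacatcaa
Gm6560, a copy of Pkm: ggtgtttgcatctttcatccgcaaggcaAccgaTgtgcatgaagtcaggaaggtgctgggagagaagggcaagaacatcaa
Ldha: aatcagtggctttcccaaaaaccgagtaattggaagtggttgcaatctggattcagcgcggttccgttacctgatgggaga
Gm5452, a copy of Ldha: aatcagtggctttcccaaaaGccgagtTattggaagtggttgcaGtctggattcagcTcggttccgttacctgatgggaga
The Gapdh stretch occurred letter for letter in transcripts of 36 other annotated genes, and the pseudogene Gm11953 differed from it only by C38T, with the member's base first and positions counted from the first base printed. For Pkm and Ldha no exact copy of the stretch shown was annotated. The nearest Pkm copy, Gm6560, carried G29A and C34T, and the nearest Ldha copy, Gm5452, carried A21G, A28T, A45G and G58T.

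Counted over the whole longest transcript, 3 members shared most of their 81-base words. Of the 81-base words of Gapdh, 79.8% (1069 of 1340) also occurred in a transcript of another annotated locus, followed by 67.4% for Pgk1 and 63.8% for Eno1. The share was 12.8% for Pkm, 8.49% for Gpi1, 3.86% for Ldha, 2.03% for Tpi1 and 0.477% for Aldoa, and it was 0 for Hk2 and Pfkl. With 50-base words 9 members had a shared word, and the lower shares rose to 30.5% for Pkm, 19.6% for Gpi1, 16.6% for Ldha, 13.5% for Aldoa, 7.51% for Tpi1 and 0.0543% for Pfkl. Gapdh (82.5%), Eno1 (72.2%) and Pgk1 (68.0%) still had the highest shares, and Hk2 had none. Among 22046 genes with 81-base words, 19.4% had any shared one, against 8 of the 10 members, and 1.27% had a share as high as that of Eno1 or higher. Alignment of annotated pseudogenes to coding transcripts gave the same ends of the scale. Gapdh matched 341 pseudogenes, of which 38 matched at 98% identity or above. It was the best match of 204 pseudogenes, more than any other coding gene. Ldha matched 29, Pkm 14, Eno1 12, Aldoa 11, Tpi1 8, Pgk1 7 and Gpi1 1, and none matched Hk2 or Pfkl.

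The Gapdh copies that had rows of their own held few counts. These were 10 copies, with 44 counts in replicate 1 and 44 in replicate 2 between them, and 6 of the 10 were at 0 in both. No member overlapped another gene on its own strand. Tpi1 overlapped Spsb2 on the opposite strand, and the counting used strand.

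Levels are given as TPM with the length of the union of exons, each as mean ± SD over the 2 replicates. Ldha, which makes lactate from pyruvate, led with 26029 counts in replicate 1 and 21683 in replicate 2. These correspond to 1831 and 1897 TPM (1864 ± 46.7 TPM, n = 2), rank 44 among all genes. Its locus is chr7:46845803-46855627 on the plus strand (mm10, as are all loci below). Ldha alone made up 62.7% of the summed TPM of the 10 members in replicate 1 and 76.4% in replicate 2.

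Pkm, the pyruvate kinase that makes the pyruvate (chr9:59656367-59679375, plus strand), had 7427 and 3632 counts. Its TPM was 381 and 232 (306 ± 106, n = 2), rank 647. Pgk1, phosphoglycerate kinase, which forms the first ATP of the pathway (chrX:106187099-106203699, plus strand), had 3197 and 2132 counts. Its TPM was 234 and 194 (214 ± 28.2, n = 2), rank 1048. Pgk1 is the X-linked member, and it ranked 89 of 530 X-linked genes with at least 1 TPM.

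A middle group followed. Gpi1, which turns glucose 6-phosphate into fructose 6-phosphate (chr7:34201326-34230336, minus strand), had 2848 and 736 counts, or 132 and 42.3 TPM (87.0 ± 63.2, n = 2). Aldoa, the aldolase that splits the six-carbon sugar (chr7:126795233-126800447, minus strand), had 1480 and 290 counts, or 108 and 26.4 TPM (67.3 ± 57.8, n = 2). Hk2, the hexokinase that traps glucose in the cell as its phosphate (chr6:82725026-82774454, minus strand), had 2619 and 1453 counts, or 62.2 and 42.9 TPM (52.5 ± 13.6, n = 2). Gpi1 and Aldoa were more than 3-fold apart between the replicates, while Hk2 was less than 2-fold apart.

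Tpi1, triosephosphate isomerase (chr6:124810591-124814296, minus strand), had 1047 and 109 counts, or 79.1 and 10.2 TPM (44.7 ± 48.7, n = 2). Eno1, enolase (chr4:150237196-150248873, plus strand), had 968 and 407 counts, or 50.7 and 26.5 TPM (38.6 ± 17.1, n = 2). Gapdh, glyceraldehyde-3-phosphate dehydrogenase (chr6:125161851-125166467, minus strand), had only 340 and 85 counts, or 30.3 and 9.43 TPM (19.9 ± 14.8, n = 2). The SD of Tpi1 exceeded its mean.

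Pfkl, the liver type of phosphofructokinase (chr10:77986948-78009796, minus strand), was lowest with 372 and 58 counts, or 13.3 and 2.58 TPM (7.94 ± 7.58, n = 2). Ldha was 235-fold above Pfkl in the mean, 138-fold in replicate 1 and 736-fold in replicate 2. Of the 9 neighbouring pairs in the order by mean TPM, only Ldha and Pkm, and Pgk1 and Gpi1, had replicate ranges that did not overlap. From Gpi1 down to Pfkl the ranges of all neighbours overlapped. All members share the same 2 libraries, and within each of them Pkm was above Pgk1, Gpi1 above Aldoa, Eno1 above Gapdh and Gapdh above Pfkl. Aldoa and Hk2, Hk2 and Tpi1, and Tpi1 and Eno1 changed places between the libraries. The order is a description, with no test.

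**Figure D1:**
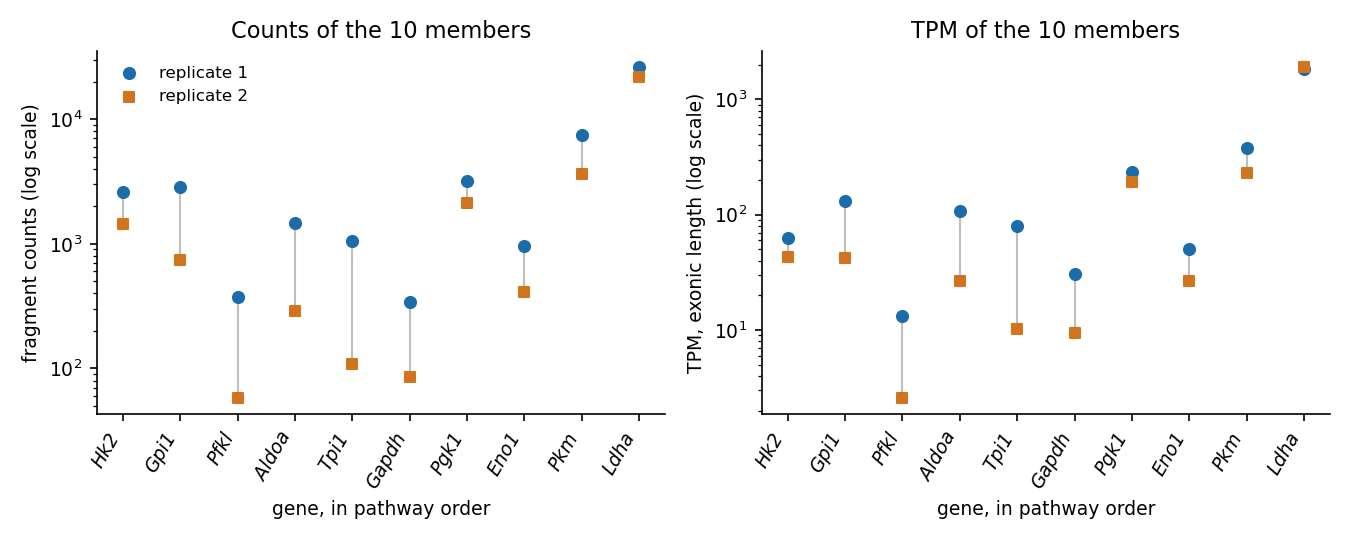
Counts (left) and TPM by exonic length (right) of the 10 members in pathway order, both on log axes, with circles for replicate 1, squares for replicate 2 and a grey line joining them. Ldha stands above all others in both libraries, and the gap between replicates is widest for Tpi1 (1047 and 109 counts).

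The order among the lower members depended on how much of each transcript could give unique reads. When the length of each gene was reduced to its share of unshared 81-base words, a choice added after the data had been seen, Gapdh rose from 19.9 to 90.0 TPM, Eno1 from 38.6 to 97.7 TPM and Pgk1 from 214 to 601 TPM. Pgk1 then stood above Pkm (322 TPM) and ranked 28 of 532 X-linked genes. Ldha stayed first at 1779 TPM and Pfkl last at 7.27 TPM. This scaling takes a fragment to be lost whenever a single read could not be placed. Pairs of reads can be placed more often than single reads, and the alignment settings are stated for the study's chromatin RNA libraries, where only unique hits were kept, but not for these libraries.

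**Figure D2:**
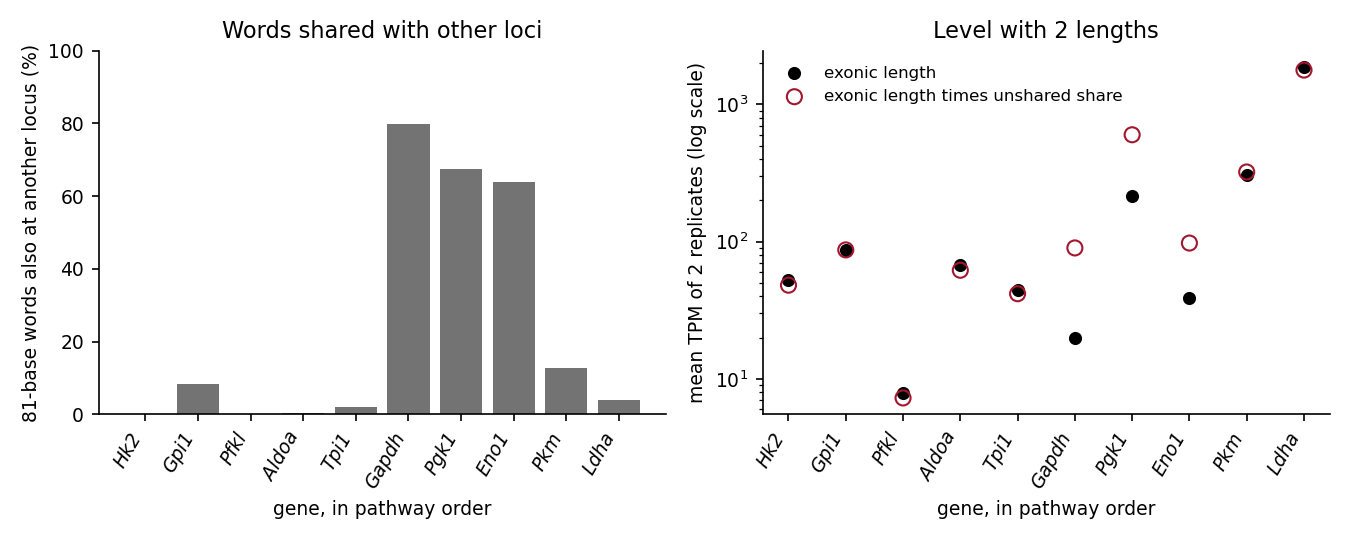
Left, percentage of the 81-base words of each member's longest transcript that also occur at another annotated locus; right, mean TPM of the 2 replicates on a log axis with the exonic length (filled) and with that length times the unshared share (open). Only Gapdh, Pgk1 and Eno1, with shares of 79.8%, 67.4% and 63.8%, move visibly between both lengths.

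Gapdh and Pgk1 are also common reference genes of expression assays. Among 12 such genes Gapdh had the lowest mean TPM by exonic length, which no longer held with the unshared length. Hprt (2114 TPM), Actb (335 TPM) and Rplp0 (246 TPM) led this list by mean exonic TPM, and its median was 146 TPM. By unshared length Pgk1 (601 TPM) stood above Actb (314 TPM) and Rplp0 (299 TPM).

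The member was the most abundant isozyme of its step at 9 of 10 steps, in each replicate and with every length tried. Gpi1 and Tpi1 led by construction, having no other isozyme listed, and the rival of Pgk1, Pgk2, had 0 counts. Phosphofructokinase was the exception. Pfkp, the platelet type, had 10276 and 6531 counts, or 319 and 252 TPM, and stood 24.0-fold above Pfkl in replicate 1 and 97.7-fold in replicate 2 on the TPM scale. Pfkl made up 3.90% and 0.996% of the summed TPM of the step. Pfkm, the muscle type, had 194 and 80 counts, or 8.62 and 4.42 TPM, and neither Pfkp, Pfkl nor Pfkm held a shared 81-base word.

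Lactate dehydrogenase was the step with a second abundant isozyme. Ldhb, whose subunit prevails in heart, had 3060 and 2004 counts, or 313 and 255 TPM, so that Ldha was 5.85-fold and 7.45-fold above it. Ldhc, the testis form, reached 2.53 and 0.484 TPM. At the hexokinase step Hk2 exceeded Hk1, the form of brain and many other tissues (6.13 and 2.36 TPM), 10.2-fold and 18.2-fold.

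Aldoa exceeded Aldoc, the brain aldolase (12.4 and 1.78 TPM), 8.72-fold and 14.8-fold. Eno1 exceeded Eno2, the neuronal enolase (11.2 and 4.15 TPM), 4.54-fold and 6.38-fold. Eno3, the muscle enolase, reached 5.28 and 1.27 TPM, and Eno4 1.24 and 0.903 TPM. In these pairs the member was on top in both libraries, but the folds moved with the length used. With the deposited length, introns included, Aldoa was 2.63-fold and 4.46-fold above Aldoc, Hk2 26.4-fold and 47.3-fold above Hk1, Ldha 15.3-fold and 19.5-fold above Ldhb, and Pfkp 9.16-fold and 37.3-fold above Pfkl. With the unshared length Eno1 was 12.5-fold and 17.6-fold above Eno2.

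Several forms restricted to other tissues were at or near 0. Pgk2 and Aldoart2 of testis and Ldhal6b had 0 counts in both replicates. Gapdhs, the sperm form of Gapdh, had 3 and 3 counts, and Pklr, the pyruvate kinase of liver and red cells, 27 and 12. Pkm was 322-fold and 354-fold above Pklr on the TPM scale, or 125-fold and 138-fold with the deposited length. Eno1b was not analysed here.

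**Figure D3:**
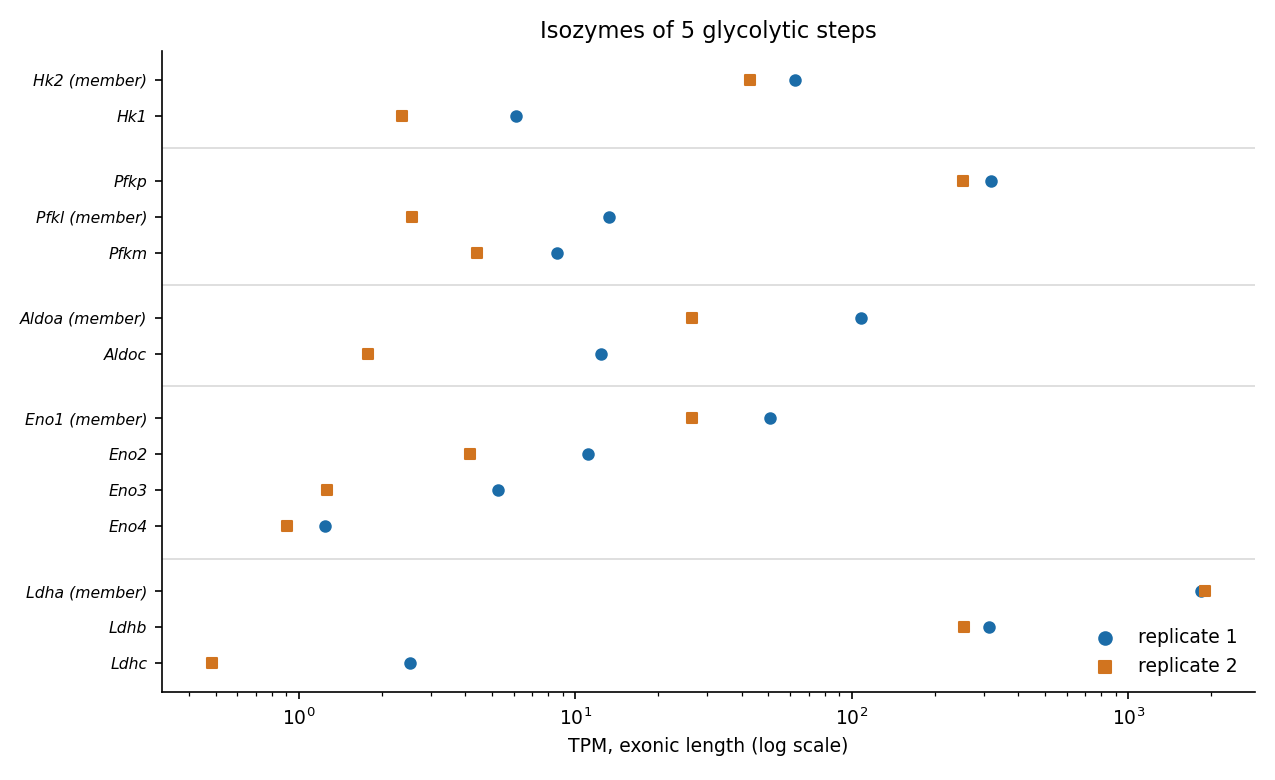
TPM by exonic length (log axis) of the isozymes at the 5 steps where more than 1 gene had a mean of at least 1 TPM, in pathway order from top to bottom, with circles for replicate 1 and squares for replicate 2. The member is topmost within its step except for phosphofructokinase, where Pfkp lies at 319 and 252 TPM.

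Phosphoglycerate mutase, the step between Pgk1 and Eno1, has no member among the 10. Its main gene Pgam1 had 1611 and 583 counts, or 121 and 54.5 TPM, and 40.4% of its 81-base words were shared with other loci. Bpgm, which makes the 2,3-bisphosphoglycerate of red cells, reached 26.6 and 14.8 TPM, and Pgam2, the muscle form, had 1 and 0 counts. Pgam1 was 2.39-fold and 2.05-fold above Eno1 by exonic length, and 1.45-fold and 1.25-fold by unshared length.

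The replicates were compared gene by gene with an exact binomial test (two-sided), which sets the split of a gene's counts against that of the library totals. Its p-values were adjusted by Benjamini and Hochberg's method over all 14536 genes that had 10 counts or more. The log2 ratio is of CPM, replicate 2 over replicate 1, after adding 0.5 counts. Replicate 2 was lower for all 10 members, whereas 60.8% of all tested genes passed the test in either direction and 45.7% were lower in replicate 2. The median log2 ratio was -1.37 for the members and -0.31 for all tested genes. The 2 libraries thus differed broadly. Of the members 9 lay below the median of all tested genes, and Ldha lay above it.

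Tpi1 differed most, with a log2 ratio of -3.03 (95% interval -3.34 to -2.75, adjusted p = 1.01e-160 by the exact binomial test), an 8.18-fold lower CPM in replicate 2. Pfkl followed at -2.44 (interval -2.88 to -2.05), then Aldoa at -2.12, Gapdh at -1.77, Gpi1 at -1.73 and Eno1 at -1.02. Pkm was at -0.81, Hk2 at -0.62 and Pgk1 at -0.36. Ldha was nearly level at -0.04 (interval -0.06 to -0.01, adjusted p = 0.00922 by the exact binomial test). On the TPM scale Ldha was slightly higher in replicate 2, because TPM is scaled to the sum over length.

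Among 5727 genes with at least 1000 counts in all, 5.01% had a log2 ratio of -1 or below, and so had 4 of the 8 members in that set (Gpi1, Aldoa, Tpi1 and Eno1). Only 3 of these genes reached the ratio of Tpi1 or a lower one, Tpi1 itself included. The others were Gm12338 (1420 and 96 counts) and the ES cell gene Dppa5a (2915 and 298 counts), named after their values were seen.

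Scaling by TMM, a normalisation to the bulk of genes, raised every log2 ratio by 0.26 and moved the median of all tested genes from -0.31 to -0.05. Under it 9 members were lower in replicate 2 and Ldha was higher at 0.22, with 57.7% of tested genes passing in either direction and 28.9% lower. The direction for Ldha therefore followed the scaling, while Tpi1, Pfkl, Aldoa, Gapdh, Gpi1, Eno1, Pkm, Hk2 and Pgk1 were lower under both.

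GC content moved with the replicate difference. The longest transcripts of the members had a median GC of 55.1%, from 49.7% in Pgk1 to 57.7% in Pkm, against 49.7% over the tested genes, and 9 of 10 members lay above that median. Over the 9213 autosomal genes whose counts reached 50 in both libraries, GC and log2 ratio had a Spearman's rho of -0.66. These genes all come from the same pair of libraries and are not independent. Among the 10 members rho was -0.43, and -0.23 without Ldha.

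With the GC trend of the autosomal genes removed, the median of the members became -0.64 and that of all tested genes -0.01. Then 6 members were lower in replicate 2 and 1, Ldha, was higher, so that 7 passed the test against 44.6% of 14349 genes in either direction and 21.5% lower. Tpi1 (-2.41), Pfkl (-1.69), Aldoa (-1.37), Gpi1 (-1.10), Gapdh (-1.02) and Eno1 (-0.26) stayed lower, and Ldha stood at 0.47. Hk2 (-0.09, adjusted p = 0.124), Pkm (-0.04, adjusted p = 0.321) and Pgk1 (0.04, adjusted p = 0.486) no longer passed the exact binomial test. Of the 8 members with at least 1000 counts, 3 had a trend-free ratio of -1 or below (Gpi1, Aldoa and Tpi1), as had 1.58% of 5698 genes.

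Exonic length (rho 0.26 over the 10 members), the share of shared words (rho 0.29) and mean TPM (rho 0.70) were also set beside the ratio. Mean TPM includes the counts of both libraries that make up the ratio. The part of RNA quality in these differences was not tested.

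**Figure D4:**
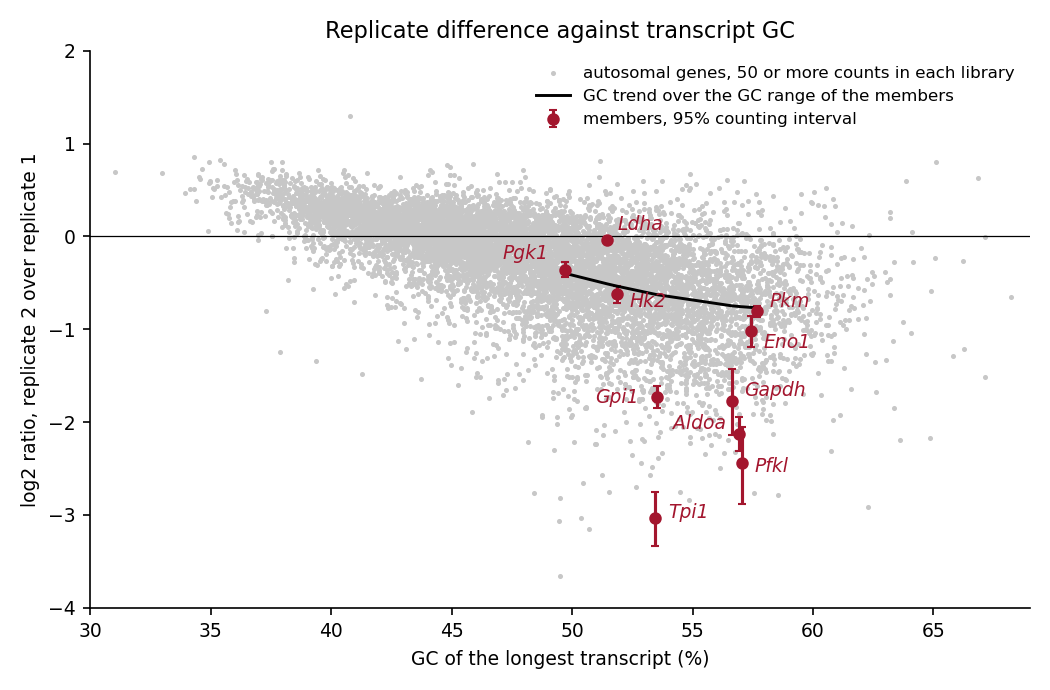
Log2 ratio of CPM, replicate 2 over replicate 1, against the GC of the longest transcript in percent, with grey points for 9213 autosomal genes, red points with 95% counting intervals for the 10 members and a black line for the GC trend at the GC of the members. Pgk1, Hk2 and Pkm lie on the trend, Tpi1 lies far below it at -3.03 and Ldha above it at -0.04.

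Other genes of the pathway were compared from lists by role, and in each count the background is the same 45.7% lower and 60.8% either way by library totals, or 21.5% and 44.6% with the GC trend removed. Of the 13 other isozymes tested, out of 20 in the table, 8 were lower and none higher by library totals, with a median log2 ratio of -1.44, and Aldoc was at -2.87 and Pfkp at -0.43. With the GC trend removed 6 were lower and 1, Ldhb, was higher, with a median of -0.69. The 5 genes that set fructose 2,6-bisphosphate, the activator of phosphofructokinase, were all lower by library totals, with a median of -0.75. With the GC trend removed the median was -0.24, and Pfkfb1 (adjusted p = 0.0526), Pfkfb2 (0.158) and Pfkfb4 (0.895) no longer passed the exact binomial test. They were led by Pfkfb2 (51.3 TPM, -0.17), Pfkfb1 (29.6 TPM, -0.56) and Tigar, listed as 9630033F20Rik (11.7 TPM, -0.91). Gluconeogenesis was low throughout. Its 7 genes had a median of 1.66 TPM, led by Pcx (5.73 TPM), Pck2 (2.63 TPM) and Fbp2 (2.22 TPM), and 2 of 5 tested were lower, with a median log2 ratio of -0.80. After removal of the GC trend 1 was lower and 1, Pcx, was higher, with a median of -0.03.

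Of the 14 genes that carry pyruvate into mitochondria and oxidise it, 3 were lower, 3 higher and 8 did not pass, with a median log2 ratio of -0.01 and a median GC of 46.8%. Pdha1, the X-linked subunit of pyruvate dehydrogenase, had 695 and 721 TPM at a ratio of -0.04. Pdk3, a kinase that switches the complex off, had 305 and 227 TPM, and Dld, its shared subunit, 210 and 264 TPM. With the GC trend removed 3 were lower and 5 higher, and the median of this list was 0.09.

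For lactate transport, Slc16a1, the monocarboxylate transporter MCT1, had 196 and 256 TPM (log2 ratio 0.30). Its chaperone Bsg had 318 and 102 TPM (-1.72), and Slc16a3, the transporter of strongly glycolytic cells, had 3.93 and 1.27 TPM (-1.70). Of 4 tested genes 2 were lower and 1 higher, with a median of -0.89, and the same numbers with the GC trend removed, with a median of -0.69. The GC of Slc16a1 was 42.9% and that of Bsg 57.6%.

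In the pentose phosphate pathway 6 of 8 tested genes were lower and 1 higher, with a median of -0.73. After removal of the GC trend 2 were lower and 3 higher, and the median was -0.02. Rpe led with 262 and 360 TPM (0.37), followed by Taldo1 with 55.7 and 28.7 TPM (-1.04) and Rpia with 25.7 and 26.0 TPM (-0.07). G6pdx, the X-linked entry enzyme, had 26.0 and 9.63 TPM (-1.52). Of 9 hypoxia and carbohydrate response factors 7 were lower and 1 higher, with a median of -0.40. With the GC trend removed 0 were lower and 2, Arnt and Egln1, were higher by the exact binomial test, and the median was -0.02. Hif1a, the oxygen-sensitive subunit of HIF-1, had 274 and 324 TPM (0.15), its partner Arnt 69.4 and 71.5 TPM (-0.05), and Egln3, a prolyl hydroxylase that marks HIF for decay, 68.8 and 48.7 TPM (-0.59).

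Differences between the libraries also reached other lists. Of the 12 reference genes, which include the members Gapdh and Pgk1, 8 were lower and 1 higher (median -0.23), against 5 lower and 2 higher with the GC trend removed (median -0.06). Their ratios by library totals included Rplp0 at -1.10, Actb at -0.52 and Hprt at -0.07. Of the 9 ES cell markers 8 were lower and 1 higher (median -0.45), against 6 and 2 with the GC trend removed (median -0.18). By library totals the markers included Dppa5a at -3.06, Pou5f1 at -2.76 and Esrrb at -1.24, while Tdgf1 was at -0.26, Nanog at -0.18 and Zfp42 at 0.05. Values as low as that of Tpi1 thus occurred among genes outside glycolysis.

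The promoters of the 10 members were read as the 250 bases upstream of the start in RefSeq (GRCm38.p6), and were GC-rich, with a median of 61.0% against 52.4% over 32851 promoters. The letters ACGTG, the core of the hypoxia response element, were searched on both strands. They occurred in 3 of 10 members (Ldha, Pgk1 and Hk2) and in 16.6% of all promoters. CACGTG, the E-box, contains ACGTG on both strands and occurred in 1 member, Ldha, and in 6.02% of all. GGGCGG, the GC box, occurred in 7 members and in 32.7% of all, and TATAAA in none of the members and in 12.4% of all. The RefSeq start of Gapdh lay 694 bases from the start in the table, that of Pkm 209 and that of Tpi1 138, so that these windows may belong to another start. Ldha and Pgk1 are printed because Ldha held the most matches, 5 counted by strand, and Pgk1 is the X-linked member. Capitals mark ACGTG or its reverse complement.
Ldha, chr7:46845554-46845803, plus strand: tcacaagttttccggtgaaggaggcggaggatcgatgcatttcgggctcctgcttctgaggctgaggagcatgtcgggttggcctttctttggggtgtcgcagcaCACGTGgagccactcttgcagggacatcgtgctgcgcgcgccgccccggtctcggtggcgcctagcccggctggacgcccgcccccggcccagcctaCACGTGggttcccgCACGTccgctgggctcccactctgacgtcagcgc
Pgk1, chrX:106186850-106187099, plus strand: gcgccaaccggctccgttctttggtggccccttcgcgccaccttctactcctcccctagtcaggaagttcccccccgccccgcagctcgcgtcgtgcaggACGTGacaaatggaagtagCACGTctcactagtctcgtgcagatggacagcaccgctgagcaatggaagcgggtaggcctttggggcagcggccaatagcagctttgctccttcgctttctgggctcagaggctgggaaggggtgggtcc
A match is a description of the letters, and no binding was measured.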

How the data were processed

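Messenger RNA was captured on oligo-dT beads, per the labels, made into libraries with a stranded total RNA kit and sequenced from 2 libraries of 1 group. The authors counted fragments with featureCounts (version 1.5.2 per the file header) in reverse-stranded mode over transcript spans of a long RNA annotation on mm10, introns included, with neither multi-mapping nor multi-gene fragments requested. The deposited values are raw counts. The submitters' processing notes name Bowtie2 2.3.2 and STAR 2.4.2a without a role, and the study's methods give STAR with unique hits on a masked mm10 genome for its chromatin RNA libraries. The alignment of these libraries is not given in the sources used here. Assigned totals were 23716499 and 20275749.

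TPM was computed from the counts with exon unions of GENCODE M21 basic, matched by symbol for 21209 genes and by older symbol for 837 (97.7% of 22556), and averaged. A level is mean ± SD (n = 2). Replicates were compared by a two-sided exact binomial test called at an adjusted p of 0.05 (Benjamini-Hochberg, all genes of 10 or more counts, scipy 1.17.1). The test was run on simulated counts with counting error alone, which cannot show how it behaves on libraries that differ as broadly as these. Alternatives used TMM factors (edgeR 4.0.16), DESeq2 1.42.0 size factors, a cubic GC trend fitted on autosomal genes that reached 50 counts in both, other filters and other lengths. Exact words of 81 bases, the read length in the study's methods, and of 50 bases were sought in all GENCODE transcripts rather than in the genome, which was not used here, and pseudogenes were aligned with blastn 2.17.0 (at least 200 bases at 80% identity or above).

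Named are all 10 members, every other isozyme with a mean of at least 1 TPM, and tissue forms at or near 0. Each other list gives its 3 highest by mean TPM and log2 ratios beyond -1 or 1 at 50 or more counts in each library. The fibroblast and neural precursor markers do not follow this rule, and only Lum, Nes, Sox1 and Olig2 are named from them. Egln1 and Pfkfb4 are named for their test results with the GC trend removed. The members and lists were chosen with earlier results of these data known. Promoters are from RefSeq (GRCm38.p6), where all 10 members matched. Some genes of these lists and 1 sequence are not reported here.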

Additional observations from a re-analysis of the deposited data

How the results depend on the processing

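Ldha changed direction with the scaling. Its log2 ratio of -0.04 became 0.22 with TMM factors, 0.27 with DESeq2 size factors and 0.47 with the GC trend removed (0.42 with a straight-line trend, added after the data had been seen). Pgk1 turned to 0.038 with the GC trend removed and Pkm to 0.014 with the straight-line trend, neither past the test. Hk2 (-0.09) and Pkm (-0.04) lost their calls with the cubic GC trend removed, as did Pgk1 with DESeq2 size factors (-0.05) and the straight-line trend (-0.003). Hk2 kept its call with the straight-line trend removed (-0.14, adjusted p = 0.00743 by the exact binomial test). By library totals 10 members passed the test, against 60.8% of all tested genes, and 7 passed with the GC trend removed, against 44.6%. Ldha was the 1 of these 7 that was higher. With DESeq2 size factors Ldha passed as higher and Pgk1 did not pass, and no share of all genes is given for that scaling. The median TPM of the members, 59.9, was 34.4 to 93.6 when either replicate was left out, the number of steps led by the member was 9 throughout (3 of them without a detected rival), and 41 to 44 of 45 pairs of members kept their order, against 40 with the deposited length and 36 with the unshared length. Leaving out 1 of 2 replicates cannot move a mean by 1 SD, and adding 1 count leaves the test as it was. Apart from these, of 111 values recomputed 90 were classed as unchanged, 11 levels moved by 1 SD or more, 6 reversed and 4 lost their call. For a single member, unchanged means that direction and call were kept or that the level moved by less than 1 SD. The 90 include counts over the members, which have no direction, call or SD, such as the 7 members past the test with the GC trend removed. The levels that moved further were those of Hk2, Tpi1, Gapdh, Pgk1, Eno1, Pkm and Ldha under another length or none. No paired analysis was possible because all samples belong to 1 group. Sequence copies were sought in annotated transcripts alone, so unannotated copies are not counted. Differences in level between members were not tested, and Pfkl and Gapdh rest on 58 and 85 counts in replicate 2.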
